A study of Rattus norvegicus with 16 samples.

Results

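The miRNAs of the H19 and Igf2 genes were followed in the hearts of newborn rats. They are 4 of the 677 rat miRNAs on the array, taken by their names on it: rno-miR-675 and rno-miR-675* from the H19 hairpin, and rno-miR-483 and rno-miR-483* from the Igf2 hairpin. The species prefix is left out below where nothing turns on it. The animals were 8 HHR (Hypertrophic Heart Rat) and 8 NHR (Normal Heart Rat), all 2 days old, with no treatment named. The HHR strain is described as having hearts enlarged through many genes, and the NHR strain hearts of normal size. No heart size of these newborns was used here. Each strain gave 4 females and 4 males, and each animal gave 1 one-colour array with no pooling. On the tissue the labels are at odds, since they speak both of whole hearts and of ventricles freed of the atria. The labels name no engineered allele, so strain stands for all the genetic differences between the lines at once.

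H19 and Igf2 are neighbouring imprinted genes under a shared control region. H19, a long noncoding RNA, is transcribed from the maternal chromosome and carries the miR-675 hairpin in the first exon, while Igf2, which encodes a fetal growth factor, is transcribed from the paternal chromosome and carries the miR-483 hairpin in an intron. Both genes are highly active in fetal tissues, the heart included, and are turned down after birth. miR-675 has been reported to restrain growth of the placenta and to lower the kinase CaMKIIδ in cardiac muscle cells. A starred name on arrays of this age marks the hairpin arm once taken to be the minor product.

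The mature arms and hairpins are shown because the array reads each arm with probes of its own, and the arms turned out to differ in detection. All 4 names had a counterpart in RefSeq (GRCr8 build), by hairpin. RefSeq names arms by their 5p or 3p side, and the array files do not pair the older names with a side, so which arm carries the star was not settled here. In the mature sequences, capitals mark the seed, bases 2 to 8, which leads target pairing.
rno-miR-675-5p: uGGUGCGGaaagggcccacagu
rno-miR-675-3p: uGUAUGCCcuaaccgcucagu
rno-miR-483-5p: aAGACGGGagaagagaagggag
rno-miR-483-3p: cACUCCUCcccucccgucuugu
In the hairpins, capitals mark both arms.
Mir675: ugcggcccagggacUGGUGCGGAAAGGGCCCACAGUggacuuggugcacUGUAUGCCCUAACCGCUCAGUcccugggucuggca
Mir483: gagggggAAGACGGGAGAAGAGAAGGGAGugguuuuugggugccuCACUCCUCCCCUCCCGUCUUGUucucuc
The 4 seeds differ from one another, and none of them occurs as the seed of any other of the 724 mature rat miRNAs in the table. The arms are 21 or 22 bases long and GC-rich, from 52.4% in miR-675-3p to 63.6% in miR-675-5p and miR-483-3p. The longest uninterrupted stretch of complementary bases between the arms was 10 in Mir483 and 5 in Mir675.

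Both hairpins lie on the minus strand of chromosome 1 in GRCr8. Mir675 spans chr1:207161752-207161835 inside H19 (chr1:207160175-207162851), and Mir483 spans chr1:207247859-207247931 inside Igf2 (chr1:207243873-207261263). The hairpins are 86.0 kb apart, with no other miRNA hairpin of the table between them. The array files name the older rn4 build, and no coordinate was carried between builds.

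Each miRNA was read by 20 spots per array. rno-miR-675 gave no signal above background: none of its 320 spots over the 16 arrays was well above background, and it was detected on 0 arrays of either strain. Its mean unscaled signal ran from -3.29 to -1.98 intensity units after the scanner's background subtraction, so the value has only an upper bound in both strains and was not tested. miR-675*, from the same hairpin, was well above background in 162 of 320 spots and detected on all 16 arrays. miR-483 was well above background in 301 of 320 spots and miR-483* in 116 of 320, and both were detected on all 16 arrays. No spot was saturated.

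The probes of a miRNA did not contribute equally. For miR-675*, probes A_26_P00002823 and A_26_P00002824 were well above background on all 16 arrays, with unscaled signals from 35.1 to 72.0 and from 36.3 to 74.3. Its other 2 probes were above background on no array, at 3.21 to 10.1 and -3.85 to 0.229. For miR-483, probe A_26_P00001619 gave 64.9 to 91.2 on all 16 arrays and A_26_P00001618 gave 14.9 to 20.2, above background on 15. For miR-483*, A_26_P00003050 was above background on all 16 arrays (14.5 to 34.1), A_26_P00003049 on 8, and the remaining 2 on none. The level of each miRNA is the mean of all its probes, dim ones included. For miR-483* only 1 of 4 probes was steady, while miR-675* and miR-483 had brighter ones. Replicate spots of a probe on 1 array varied by a median of 6.98% and 9.37% for the bright miR-675* probes, 5.27% for the brighter miR-483 probe and 10.5% for the brightest miR-483* probe.

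**Figure D1:**
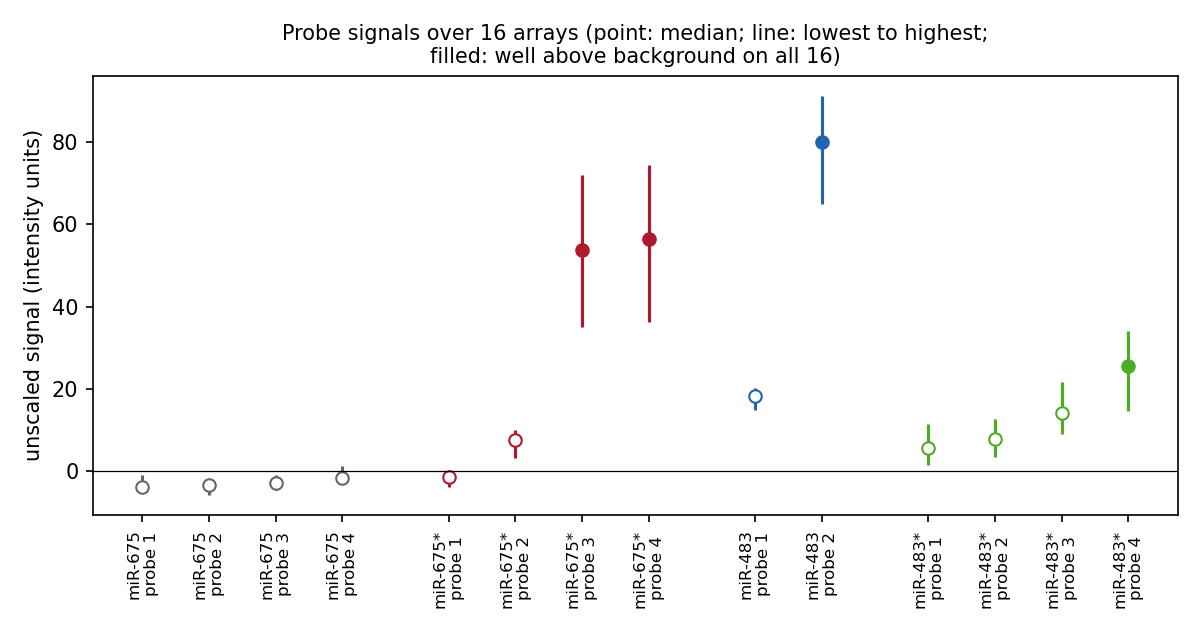
Unscaled signal (intensity units) of every probe of the 4 miRNAs over 16 arrays; the point is the median and the line runs from the lowest to the highest array. Filled points, well above background on all 16 arrays, belong to 2 probes of miR-675*, 1 of miR-483 and 1 of miR-483*; all 4 probes of miR-675 sit near 0.

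The arrays themselves differed in brightness between the strains, which bears on every value below. The 75th percentile of unscaled signal was 469.6 ± 37.3 on the HHR arrays and 378.4 ± 87.3 on the NHR arrays (SD, 8 of each). All 8 HHR arrays lay between 417.7 and 525.2, whereas 5 NHR arrays lay between 294.7 and 326.8 and the other 3 between 442.7 and 502.9. Levels are therefore given after scaling every array to a common 75th percentile of the 258 probes above background throughout. With this scaling, limma (a linear model with variances moderated across miRNAs) called 127 of 233 tested miRNAs between the strains at an adjusted p under 0.05, 54.5%, of which 21 were higher in HHR (9.01%) and 106 lower (45.5%), and the median difference of all tested miRNAs was -0.11 on the log2 scale. The direction of most calls depended on the scaling: 16.5% of the called miRNAs were higher in HHR here, and 60.0% to 86.5% under 5 other scalings (no scaling at all, median centring, quantile normalization, spike-in controls, and the percentile over all probes). Cardiac muscle markers (miR-1, miR-133, miR-208 and miR-499 names) were detected on all arrays for 6 of 7. The liver miRNA miR-122 was detected on 0 arrays and the red cell miRNA miR-451 on all 16.

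miR-675*, the detected product of the H19 hairpin, was higher in HHR hearts. In HHR females the scaled linear level of rno-miR-675* was 28.7, 33.2, 31.8 and 30.8, and in HHR males 29.6, 30.9, 28.0 and 31.5. In NHR females it was 25.5, 27.3, 24.7 and 27.3, and in NHR males 29.4, 23.8, 25.9 and 25.4. Among females the strains did not overlap, while among males 1 NHR array, at 29.4, reached into the HHR range. Of the 8 HHR arrays 6 lay above every NHR array, and 7 of the 8 NHR arrays lay below every HHR array. HHR females above all NHR females was found for 15 of 233 miRNAs (6.44%), and over both sexes HHR lay above all NHR for 7 of 233 (3%), miR-675* not among them.

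The strain means of miR-675* were 30.6 ± 1.71 for HHR and 26.2 ± 1.77 for NHR (SD, n = 8 each). The difference was 0.22 ± 0.046 on the log2 scale (HHR minus NHR, SE), 1.17-fold, with a 95% interval from 0.12 to 0.32 (limma, adjusted p = 0.00132 over 233 miRNAs). That is larger than the spread within either strain, though small in fold. By size it ranked 13 of 233 from the most raised in HHR, but by p only 50. Relative to the median of all tested miRNAs it was 0.33. In bulk tissue, fewer cells making a miRNA and less of it per cell cannot be told apart.

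The difference was of similar size in both sexes: 0.25 ± 0.066 in females (limma, adjusted p = 0.0107) and 0.20 ± 0.066 in males (limma, adjusted p = 0.0424). In females 45.1% of tested miRNAs were called, 6.44% as higher in HHR, and in males 20.6%, 3.86% as higher. The male call lapsed in 9 of 16 fits that each left out 1 array, with limma adjusted p from 0.0501 to 0.106 and differences from 0.16 to 0.21. Those arrays were HHR female replicates 3 and 4, HHR male replicates 1, 2 and 4, NHR female replicate 1 and NHR male replicates 2, 3 and 4. The difference between the sexes in the strain effect was 0.041 ± 0.093 (limma interaction, adjusted p = 0.954, 95% interval -0.16 to 0.24).

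Both bright probes of miR-675* showed the difference, at 0.22 and 0.23 on the log2 scale, and for A_26_P00002824 all 8 HHR arrays lay above all 8 NHR arrays. In the authors' deposited table of log2 values the HHR arrays of miR-675* lay above all NHR arrays, as they did for 5 of 233 miRNAs (2.15%), with a difference of 0.15 ± 0.029 (limma, adjusted p = 0.00800). The correction and scaling behind that table are unknown, so the size of its differences cannot be set beside the others.

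The miR-675* difference was as large without the dim NHR arrays. With arrays above 400 in 75th percentile alone, 8 HHR against 3 NHR and fitted with 1 mean per strain and no sex term, it was 0.31 ± 0.051 (limma, adjusted p = 0.00147), and with brightness as a covariate 0.29 ± 0.052 (limma, adjusted p = 0.00107). The 3 bright NHR arrays held 23.8 to 25.4, the lowest part of the NHR range, against 25.5 to 29.4 on the 5 dim ones. Under the same 5 other scalings it ran from 0.27 to 0.56 and stayed called. All 5 raised the median difference of all tested miRNAs, from -0.11 to between 0.022 and 0.23. They were therefore unlikely to turn the positive miR-675* difference. The normexp background correction, which models signal and local background together, ended the call: it was -0.093 with an offset of 50 (limma, adjusted p = 0.267), added before the arrays were scaled, and 0.11 without an offset (limma, adjusted p = 0.138). Relative to the median of all tested miRNAs, the miR-675* difference was 0.11 with the normexp offset and 0.23 without it, against 0.33 as reported. On slide 1 alone, with 8 arrays, the difference was 0.21 but not called (limma, adjusted p = 0.116), against 0.24 on slide 2 (limma, adjusted p = 0.0405).

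**Figure D2:**
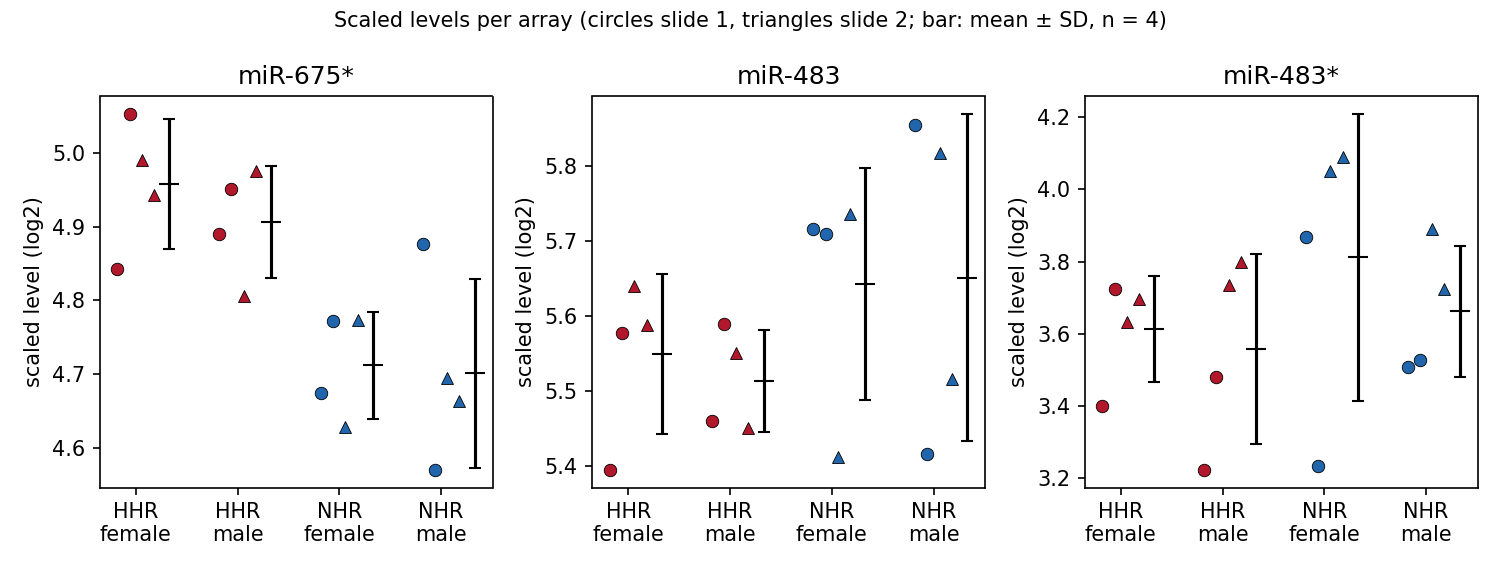
Scaled log2 level of the 3 detected miRNAs on each array, by strain and sex (circles slide 1, triangles slide 2), with mean ± SD of 4 animals beside the points. For miR-675* the HHR arrays sit at 28.0 to 33.2 on the linear scale and the NHR arrays at 23.8 to 29.4; miR-483 and miR-483* overlap widely between the strains.

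miR-483, from the Igf2 hairpin, did not pass the test between the strains. The scaled linear level of rno-miR-483 in HHR was 42.1, 47.7, 49.9 and 48.1 in females and 44.0, 48.2, 46.9 and 43.7 in males. In NHR it was 52.6, 52.3, 42.6 and 53.3 in females and 57.9, 42.7, 56.4 and 45.8 in males. The HHR values kept to a narrow band, whereas the NHR values fell into a high set of 5 and a low set of 3, the latter inside the HHR range. The means were 46.3 ± 2.71 and 50.4 ± 6.0 (SD, n = 8 each), and the difference was -0.12 ± 0.071 on the log2 scale (95% interval -0.27 to 0.037, limma, adjusted p = 0.176).

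The split of the NHR arrays in miR-483 followed array brightness. The 5 dim NHR arrays were those at 52.3 to 57.9 and the 3 bright ones those at 42.6 to 45.8. Within HHR, the unscaled miR-483 signal rose by 0.56 log2 units per log2 unit of the 75th percentile, and within NHR by 0.46, where a value of 1 would leave the scaled level flat. Over 186 miRNAs detected on all arrays this slope, taken over both strains together, had a median of 0.849 and quartiles of 0.693 and 0.987, against 0.542 for miR-483 and 1.13 for miR-675*. Within the strains the miR-675* slope was 1.11 in HHR and 0.78 in NHR. The percentile enters both the slope and the scaled level, so these values are a description. With brightness as a covariate the miR-483 strain difference turned to 0.074 ± 0.032 (limma, adjusted p = 0.0991), and on bright arrays alone to 0.084 (limma, adjusted p = 0.331).

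**Figure D3:**
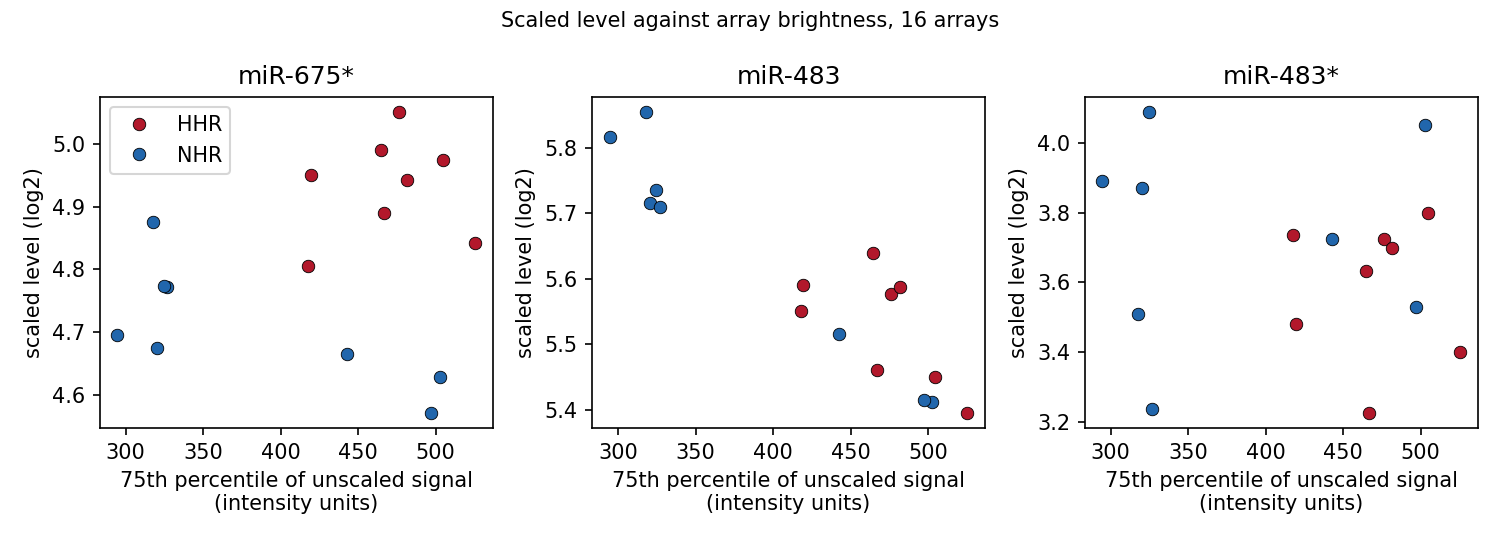
Scaled log2 level of each detected miRNA (vertical axis) against the 75th percentile of unscaled signal of its array (horizontal axis, intensity units), 16 arrays coloured by strain. miR-483 steps down from the 5 NHR arrays below 400 to the other arrays; at like brightness the HHR arrays of miR-675* sit above the 3 bright NHR arrays, at 23.8 to 25.4.

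The direction of the miR-483 difference depended on the scaling. It was 0.028 with quantile normalization, 0.020 with median centring, 0.13 with spike-in scaling and 0.22 with no scaling, none of them called. Scaling to the percentile over all probes gave 0.16, which passed (limma, adjusted p = 0.0231). Measured from the median of all tested miRNAs, which moved from -0.11 to 0.23 across the 6 scalings, miR-483 stayed between -0.010 and 0.0061.

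miR-483*, from the other arm of the Igf2 hairpin, was the dimmest of the 3 in spots above background and the most variable. The scaled linear level of rno-miR-483* in HHR was 10.6, 13.2, 12.4 and 13.0 in females and 9.34, 11.2, 13.3 and 13.9 in males. In NHR it was 14.6, 9.41, 16.6 and 17.0 in females and 11.4, 11.5, 14.8 and 13.2 in males. The strains overlapped, with 4 NHR arrays above every HHR array and NHR female replicate 2 near the bottom of the whole range. The means were 12.1 ± 1.59 and 13.6 ± 2.67 (SD, n = 8 each), a difference of -0.15 ± 0.13 on the log2 scale (95% interval -0.42 to 0.12, limma, adjusted p = 0.313). Without NHR female replicate 2 it was -0.25 and passed (limma, adjusted p = 0.0450). It also passed on slide 2 alone at -0.22 (limma, adjusted p = 0.0365) and with the normexp background at -0.25 (limma, adjusted p = 0.0299). With that background 164 miRNAs were called between the strains. Relative to the median of all tested miRNAs, the miR-483* difference was -0.049 with normexp, against -0.044 as reported. The sign of the miR-483* difference turned under 4 of the 5 other scalings, at 0.091 to 0.19, none called. The probe above background on all 16 arrays gave -0.0040 by itself. The other 3, above background on at most 8 arrays, were each lower in HHR on average but are given no size. The reported level averages all the probes, so the -0.15 takes in these dim ones.

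Within each sex neither Igf2 arm passed with the scaling reported. The strain difference of miR-483 was -0.094 ± 0.10 in females (limma, adjusted p = 0.434) and -0.14 ± 0.10 in males (limma, adjusted p = 0.348). In females it passed with the opposite sign, at 0.23, when arrays were scaled to the percentile over all probes (limma, adjusted p = 0.0344). That of miR-483* was -0.20 ± 0.18 in females (limma, adjusted p = 0.359) and -0.10 ± 0.18 in males (limma, adjusted p = 0.700). In females alone miR-483* passed at -0.39 when NHR female replicate 2 was left out (limma, adjusted p = 0.0408). Counting the 3 detected miRNAs together, 1 of 3 was called between the strains, too few to weigh against the background of 54.5%. The called one, miR-675*, was higher in HHR, as were 9.01% of all tested miRNAs by their calls.

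Sex made no called difference in these miRNAs. Female minus male was 0.031 ± 0.046 for miR-675*, 0.015 for miR-483 and 0.10 ± 0.13 for miR-483* on the log2 scale (limma, adjusted p of 0.970, 0.983 and 0.970). The 95% interval was widest for miR-483*, from -0.17 to 0.37. limma called 0 of 233 miRNAs between the sexes and 0 for the interaction (0% each), with 23 and 9 at an unadjusted p under 0.05. The interaction was 0.045 ± 0.14 for miR-483 and -0.095 ± 0.25 for miR-483* (limma, adjusted p = 0.954 for both).

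The difference between members of the same array is free of the array's scaling factor. miR-675* minus miR-483, the H19 product against the Igf2 product, was -0.55, -0.53, -0.65 and -0.64 in HHR females and -0.57, -0.64, -0.75 and -0.48 in HHR males, on the log2 scale. It was -1.04, -0.94, -0.78 and -0.96 in NHR females and -0.98, -0.84, -1.12 and -0.85 in NHR males. Every HHR array lay above every NHR array. The levels of different probes cannot be set against each other, so only the shift between the strains is read: -0.60 ± 0.086 for HHR and -0.94 ± 0.11 for NHR (SD, n = 8 each), a shift of 0.34, larger than either spread.

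The shift in miR-675* minus miR-483 was 0.38 on slide 1 and 0.30 on slide 2, with no overlap on either, and 0.31 to 0.36 when each array was left out. The bright NHR arrays sat nearer to HHR: these 3 were at -0.85 to -0.78 and the 5 dim ones at -1.12 to -0.94, all below the lowest HHR array at -0.75. With the normexp background it was 0.087 without overlap, and it was 0.069, with overlap, in the authors' deposited table. The separation was not rare: taking miR-675* minus each of the other 185 miRNAs detected on all arrays, HHR lay above all NHR for 83 (44.9%) and below for 1 (0.541%). Among all pairs of such miRNAs, 2486 of 17205 separated the strains in either direction (14.4%).

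miR-675* minus miR-483* was 1.34 ± 0.19 for HHR and 0.97 ± 0.33 for NHR (SD, n = 8 each), a shift of 0.37 with overlap. The mean distance between the Igf2 arms was alike in the strains. miR-483 minus miR-483* was 1.94 ± 0.18 in HHR and 1.91 ± 0.36 in NHR, a shift of 0.034, within the spread of either strain. Single arrays ran from 1.65 to 2.24 in HHR and from 1.36 to 2.47 in NHR. The shift was -0.091 on slide 1 and 0.16 on slide 2.

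**Figure D4:**
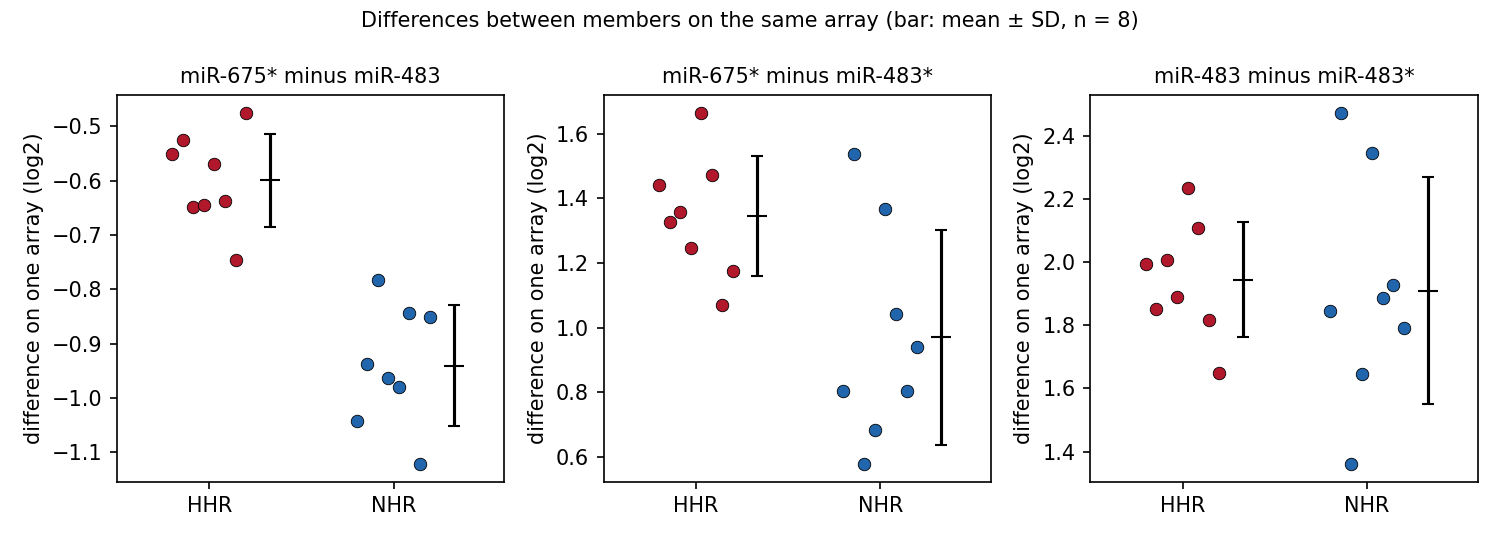
Log2 difference between 2 of the detected miRNAs on the same array, by strain, with mean ± SD of 8 animals beside the points. For miR-675* minus miR-483 the HHR arrays (-0.75 to -0.48) lie above the NHR arrays (-1.12 to -0.78); the other pairs overlap.

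Across the 16 arrays the members did not track one another, but within groups miR-675* and miR-483 did. miR-675* and miR-483 had a Pearson correlation of 0.0487 in scaled log2 level, miR-675* and miR-483* -0.260, and the Igf2 arms 0.146. After group means were subtracted these became 0.695, -0.060 and 0.022. The miRNAs most like miR-675* were miR-218 (0.873), miR-34a (0.813) and miR-378* (0.793), of which miR-218 kept 0.602 after group means were subtracted and the others 0.135 and 0.131. miR-483 was most like miR-2985 (0.894), miR-328a (0.888) and miR-92a (0.874), with 0.940, 0.942 and 0.866 within groups. miR-483* was most like miR-320 (0.898), miR-652* (0.776) and miR-3593-3p (0.765), with 0.897, 0.779 and 0.862 within groups. All values on an array share its scaling and brightness, so these correlations are descriptions.

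Other imprinted loci of rodents gave a mixed picture. Of 81 listed miRNAs 74 were on the array and 28 were tested, of which 5 were higher in HHR, 5 lower and 18 not called, beside 9.01% higher and 45.5% lower among all tested miRNAs, with a median of 0.042 against -0.11 for all tested miRNAs. The Dlk1-Dio3 cluster, from the maternally expressed side of another growth locus, had 5 higher and 2 lower of 22 tested, the Sfmbt2 intron 0 and 2 of 3, the Gnas locus 0 and 1 of 2, and miR-335 of Mest was not called. In the Dlk1-Dio3 cluster miR-410 was higher in HHR by 0.40 ± 0.082 (limma, adjusted p = 0.00132). miR-341 was detected on 8 HHR but 4 NHR arrays, so no size is given for it. In the Sfmbt2 intron miR-466b was detected on 2 HHR but 8 NHR arrays and likewise has no size given, and miR-466b-1*, detected on every array, was lower by -0.62 ± 0.13 (limma, adjusted p = 0.00152), a call lost with no scaling and with spike-in scaling (limma, adjusted p of 0.0820 and 0.0920). The counts moved with the scaling, from 17 higher and 2 lower with the percentile over all probes to 2 and 1 with spike-in scaling. All tested miRNAs moved with it too, from 57.5% higher and 9.01% lower to 6.44% and 4.29%.

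Markers of other cell types moved between the strains too. Under the scaling reported, 45.5% of all tested miRNAs were called lower and 9.01% higher, with a median log2 difference of -0.11. The sums differed by -0.38 for leukocyte and -0.20 for endothelial markers. For smooth muscle (-0.12) and cardiac markers (-0.13) the difference was near that median. Summed levels of leukocyte markers were 92.1 to 106.9 in HHR and 109.8 to 147.9 in NHR, with 2 of 3 tested lower. Those of the endothelial pair were 964.4 to 1077 and 1157 to 1272, and of the smooth muscle pair 1265 to 1336 and 1392 to 1477, with both of each pair lower and no overlap between strains. The leukocyte and endothelial sums overlapped under 4 of the 5 other scalings, and the smooth muscle sum under all 5. The direction turned for the endothelial sum under 3 of them, at 0.047 to 0.14 on the log2 scale, for the smooth muscle sum under 4, at 0.011 to 0.21, and for the cardiac sum under all 5, at 7.8e-04 to 0.21. Fibroblast markers ran from 1243 to 1657 in HHR and 1175 to 1449 in NHR, with 1 of 3 higher, and cardiac markers from 11516 to 12963 and 12276 to 13907, with 4 of 6 lower. Fibroblast sums of HHR were above those of NHR on average under all 6 scalings, by 0.14 to 0.48. The 5 other scalings all raised the median of all tested miRNAs, so they were unlikely to turn this direction. Erythroid sums overlapped, and the neural and epithelial markers were detected on no array. The part of these shifts in the miR-675* difference was not tested.

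**Figure D5:**
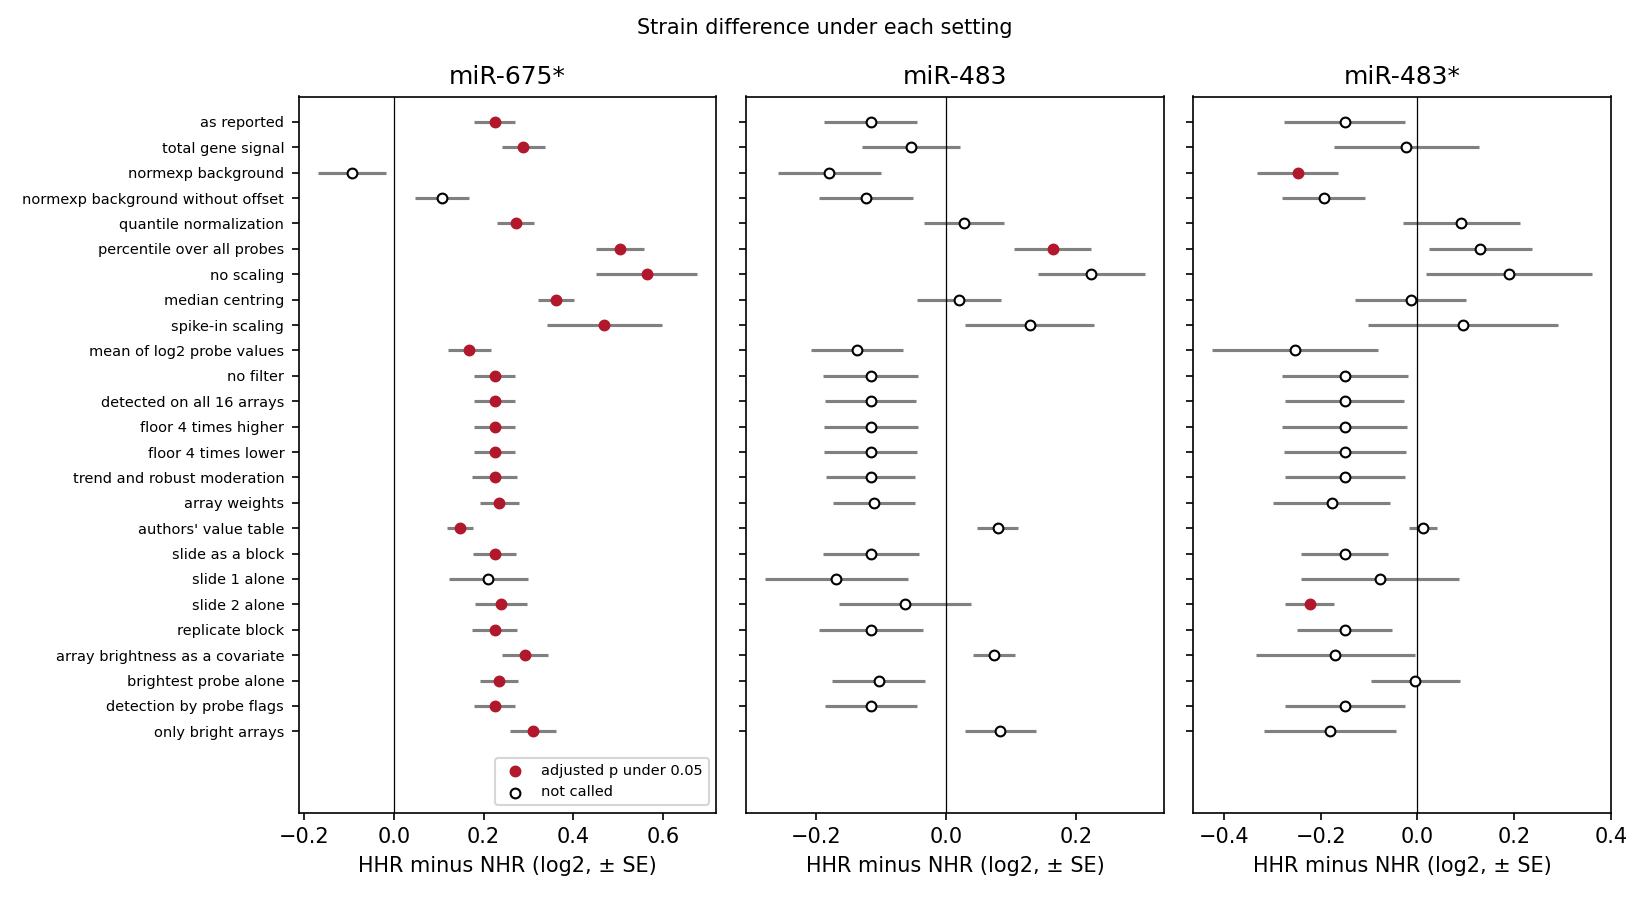
Strain difference (HHR minus NHR, log2, ± SE) of the 3 detected miRNAs as reported and under 24 other settings; filled points have a limma adjusted p under 0.05. miR-675* is above 0 in all but the normexp background with an offset, at -0.093; miR-483 and miR-483* fall on both sides of 0.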

How the data were processed

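Total RNA (100 ng per animal) was labelled with Cy3 and hybridised to Agilent rat miRNA arrays, per the labels' protocols. The authors deposited scanner output in which, per the file headers, Agilent Feature Extraction 10.7.3.1 gave background-subtracted spot intensities on a linear scale, unscaled between arrays, with detection flags (other values). The authors also deposited log2 values per miRNA; for these, the sources used here state no correction, scaling or centring, and the submitters' processing notes name limma. Processed signals of non-outlier spots were averaged per probe, scaled to a common 75th percentile over 258 probes above background on all arrays, averaged linearly per miRNA, raised to a floor of 1.88 and log2-transformed. The 233 miRNAs detected on at least 4 arrays were fitted with limma 3.58.1 in R 4.3.3, as 1 mean per strain and sex, with Benjamini-Hochberg adjustment and a threshold of 0.05; the fit was tested on simulated data. Normexp used median signals. Replicates are separate animals; their number limits the precision. The arrays came from 2 slides of 8, with 2 arrays of each group on each. Named miRNAs were the 4 members, the 3 most correlated with each, up to 4 called miRNAs of other imprinted loci with the largest differences, and miR-122 and miR-451. The members and lists were chosen with earlier results of these data known. The alternatives are in the closing section; the normexp correction without offset, bright arrays, the brightest probe, detection by probe flags and leaving out arrays beyond the strain differences were chosen after seeing the data.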

Additional observations from a re-analysis of the deposited data

Results flagged for a closer look

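In NHR females, the log2 level of miR-483 in replicate 3 was 5.41, far below the other 3 animals of the group: its gap to the nearest of them was 0.918 of the group's range. This array was 1 of the 3 bright NHR arrays, and the other 3 NHR female arrays were dim. Of 12 groups of 4 arrays examined, this was the only one flagged, where chance flags about 1 in 20.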

How the results depend on the processing

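The strain difference of miR-675* kept its direction and call in 21 of 24 alternatives. Those that changed only the detection filter, the floor, the variance moderation or a slide or replicate block left its size at 0.22. They could alter only its p, so they say nothing of its direction. The miR-675* difference was -0.093 with the normexp background, 0.11 without its offset and 0.21 on slide 1 alone. Leaving out arrays gave 0.20 to 0.25. In females it was 0.54 with spike-in scaling and 0.16 in the authors' deposited table (not called) and -0.13 with normexp; in males 0.45 with no scaling, 0.40 with spike-in scaling and 0.14 in the authors' table (not called) and -0.059 with normexp, with 0.16 to 0.26 leaving out arrays. Its sex difference was -0.022 with quantile normalization and -0.034 with the percentile over all probes, and its interaction -0.067 with normexp and -0.017 to 0.085 leaving out arrays.

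The miR-483 strain difference turned to 0.028 (quantile), 0.16 (percentile of every probe), 0.22 (no scaling), 0.020 (median centring), 0.13 (spike-in), 0.079 (authors' table), 0.074 (brightness covariate) and 0.084 (bright arrays), and was -0.16 to -0.082 leaving out arrays. In the same order from quantile to authors' table it was 0.086, 0.23, 0.33, 0.071, 0.20 and 0.11 in females, of which 0.23 passed (limma, adjusted p = 0.0344); in males it turned to 0.10 (percentile), 0.11 (no scaling), 0.055 (spike-in) and 0.049 (authors' table). Its sex difference was -0.022 (quantile), -0.050 (percentile), -0.0096 (median centring) and -0.025 to 0.053 leaving out arrays, and its interaction -0.054 (normexp) and -0.033 to 0.12 leaving out arrays.

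The miR-483* strain difference turned to 0.091 (quantile), 0.13 (percentile), 0.19 (no scaling), 0.094 (spike-in) and 0.012 (authors' table). It passed at -0.25 (normexp, -0.049 relative to the median of all tested miRNAs) and -0.22 (slide 2 alone). Leaving out arrays gave -0.25 to -0.094. In the order quantile to authors' table it was 0.099, 0.12, 0.23, 0.098 and 0.0026 in females (-0.39 to -0.10 leaving out arrays) and 0.083, 0.14, 0.15, 0.090 and 0.021 in males, with 0.0044 for median centring (-0.18 to 0.0090 leaving out arrays). Its interaction was 0.016 (quantile), 0.083 (no scaling) and 0.0083 (spike-in). The shift in miR-675* minus miR-483 was 0.087 with normexp and 0.069 in the authors' table. That in miR-483 minus miR-483* was -0.091 on slide 1, -0.031 with the total gene signal and -0.044 to 0.11 leaving out arrays. For all of these the cause was not tested.

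The number of miRNAs called between the strains, 127, was 70 with the total gene signal, 48 with no scaling, 25 with spike-in scaling, 15 in the authors' table, 37 and 47 on slides 1 and 2 alone, 74 with the brightness covariate, 55 on bright arrays, and 106 to 128 leaving out arrays. Of the miRNAs called, 16.5% were higher in HHR as reported, 60.0% with quantile normalization, 86.5% when scaled on every probe, 79.2% unscaled, 62.1% after median centring and 60.0% with spike-in scaling. The labels do not say that replicate numbers pair animals. In deviations from group means, arrays with the same number correlated at -0.22 to 0.53 (median 0.24, 24 pairs). Those with different numbers correlated at -0.61 to 0.70 (median -0.13, 72 pairs), so arrays of 1 number were more alike in the median. Replicates 1 and 2 of each group were on slide 1, and 3 and 4 on slide 2. Whether slide or pairing lies behind this was not tested. With the replicate block 124 miRNAs were called, and the differences were 0.22 for miR-675* (limma, adjusted p = 0.00394), -0.12 for miR-483 and -0.15 for miR-483*. miR-675 was not detected, so no alternative gave it a tested value.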
